A study of Rattus norvegicus with 8 samples.

Results

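The miR-29 family was described on rat miRNA arrays of the medial vestibular nucleus (MVN). Its members were chosen by name, as every array miRNA called rno-miR-29a, rno-miR-29b or rno-miR-29c with any arm or precursor suffix. The rule found 7 of the 758 miRNAs on the array, and 6 of these were detected. The detected members were rno-miR-29a-3p, rno-miR-29a-5p, rno-miR-29b-3p, rno-miR-29b-5p, rno-miR-29c-3p and rno-miR-29c-5p. The remaining member, rno-miR-29b-1-5p, was detected on none of the 8 arrays.

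The study asked which miRNAs of the MVN differ after the loss of vestibular input and during recovery from it. The UVD group (unilateral vestibular deafferentation) had the left labyrinth opened and destroyed with ethanol, and the sham-operated group (SO) served as its control. All animals were male Sprague–Dawley rats 7 weeks of age, and the left MVN was taken 4 h or 4 d after surgery. Each array held RNA pooled from 3 rats, with 2 arrays for each of the 4 groups (UVD 4 h, UVD 4 d, SO 4 h and SO 4 d), so the spread is that between pools and not between rats. The main test took 1 estimate of this spread for a miRNA from all 4 groups. The sample labels and the study's methods give different ethanol concentrations. The MVN was dissected by hand from the brainstem, so each pool was a tissue of many cell types, in which fewer cells of a type and less RNA per cell cannot be told apart. All 8 arrays were on 1 slide and in 1 scan. The UVD arrays filled row 2 and the SO arrays row 1, and columns 3 and 4 held the arrays of 4 h, so that slide position and group cannot be told apart. Between 378 and 430 miRNAs were detected on an array. All 7 miRNAs of a list of neuron-enriched miRNAs and all 4 of an oligodendrocyte list were detected on all arrays, and no list was specific to the MVN.

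A miRNA is cut from a hairpin precursor that carries a mature strand on each arm, named 5p and 3p. Bases 2 to 8 of the mature strand, the seed, largely set which messenger RNAs it pairs with and represses. The 3p strands of the miR-29 family share their seed and are known for repressing collagens and other proteins of the extracellular matrix, DNA methyltransferases and, in neurons, BH3-only genes of the apoptotic pathway. In the rodent brain the family rises during postnatal maturation, and it has been linked to both neurons and astrocytes. The 5p strands are mostly less abundant and their targets are less well described.

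The mature sequences are shown because they decide which members can act on the same targets and which a probe can tell apart. They are from RefSeq on the GRCr8 assembly, in which all 7 members were matched by name, and the capitals mark the seed:
rno-miR-29a-3p: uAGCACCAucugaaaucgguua
rno-miR-29b-3p: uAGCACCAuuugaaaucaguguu
rno-miR-29c-3p: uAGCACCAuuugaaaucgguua
rno-miR-29a-5p: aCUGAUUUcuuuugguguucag
rno-miR-29b-5p: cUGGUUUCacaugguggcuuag
rno-miR-29b-1-5p: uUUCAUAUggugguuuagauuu
rno-miR-29c-5p: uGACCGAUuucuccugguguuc

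The 3 strands of the 3p arm had the seed AGCACCA, which no other miRNA carried among the 685 array miRNAs with a RefSeq mature sequence. rno-miR-29a-3p and rno-miR-29c-3p were identical at 21 of 22 positions. Counted from the 5′ end, they differed by the single substitution C10U. rno-miR-29b-3p had 23 bases and differed from rno-miR-29c-3p by 3 substitutions, G18A, U21G and A22U, beside its additional last base. The 4 strands of the 5p arm had 4 different seeds, each found on no other of those miRNAs.

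The family came from 4 genes in 2 pairs. Mir29a (chr4:60617955-60618042) and Mir29b1 (chr4:60618334-60618414) were on the minus strand with 291 bases between their hairpins. Mir29b2 (chr13:109098831-109098911) and Mir29c (chr13:109099359-109099446) were on the plus strand with 447 bases between theirs. The Mir29b1 and Mir29b2 hairpins are shown because they give the same 3p strand and different 5p strands. Both mature strands are in capitals:
Mir29b1: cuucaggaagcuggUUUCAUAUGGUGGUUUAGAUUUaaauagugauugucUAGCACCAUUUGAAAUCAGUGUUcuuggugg
Mir29b2: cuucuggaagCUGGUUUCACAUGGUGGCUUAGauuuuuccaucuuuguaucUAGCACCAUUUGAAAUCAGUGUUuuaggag
The array signal of rno-miR-29b-3p therefore held the product of both genes, and the 5p probes were the ones that separated them.

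The probes differed in how much signal they carried. For the 3 members of the 3p arm and for rno-miR-29c-5p, 2 probes with 8 spots each were printed, and all 64 spots of every probe were well above background over the 8 arrays. For rno-miR-29a-5p, rno-miR-29b-5p and rno-miR-29b-1-5p, 4 probes with 4 spots each were printed. Probe A_26_P00002053 of rno-miR-29a-5p had all 32 spots above background, its neighbor A_26_P00002052 had 4, and the remaining probes had 0. Probe A_26_P00002049 of rno-miR-29b-5p had all 32 spots above background, A_26_P00002048 had 17, and the remaining probes had 0. The values of these members therefore rested mainly on 1 probe each. None of the 4 probes of rno-miR-29b-1-5p, the 5p strand of Mir29b1, had a spot above background on any array, and the highest total signal of any of them was 0.634. The lowest signal called detected on an array ranged between 1.76 and 2.66. No fold change is given for rno-miR-29b-1-5p.

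The total gene signal, which the scanner software sums over the spots of a miRNA in arbitrary intensity units, moved for the whole family with the array. rno-miR-29a-3p had signals of 22682 and 24504 on the UVD 4 h arrays, against 23712 and 27994 on the SO 4 h arrays. It had 33079 and 25599 on the UVD 4 d arrays, against 26609 and 24322 on the SO 4 d arrays. Replicate 1 of UVD 4 d had the highest signal for all 6 detected members, and replicate 1 of UVD 4 h the lowest for all but rno-miR-29a-5p, whose lowest array was the other one of that group. The highest signal was between 1.37 times the lowest for rno-miR-29c-5p and 1.63 times the lowest for rno-miR-29a-5p. The 75th percentile of the 377 miRNAs detected on all arrays followed the same order at its ends, with 612.1 on replicate 1 of UVD 4 h and 876.3 on replicate 1 of UVD 4 d. Before scaling, the signals of the members correlated with each other over the 8 arrays with Pearson's r between 0.698 and 0.974, and rno-miR-29a-3p and rno-miR-29c-3p were the closest pair. These points share the brightness of their array.

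**Figure D1:**
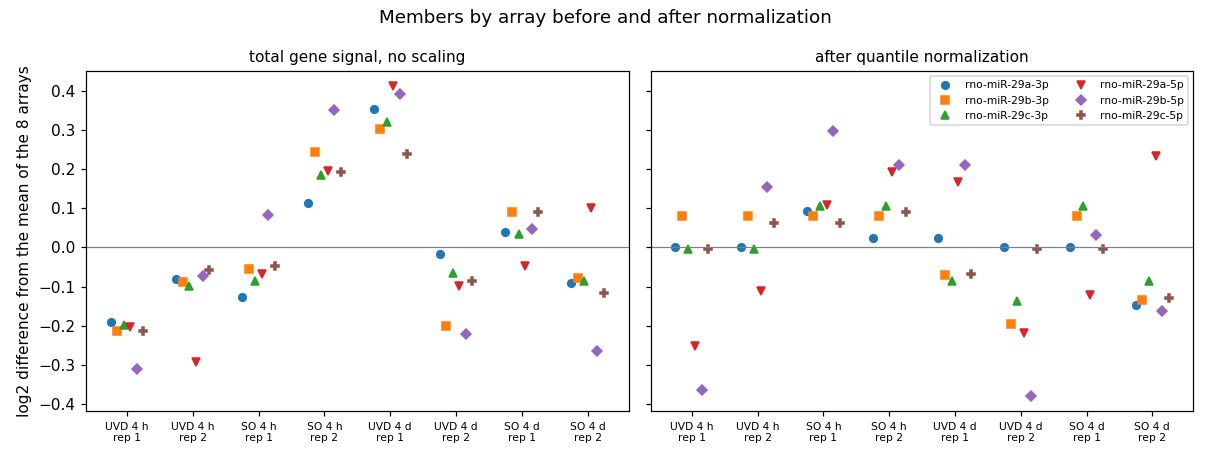
Log2 signal of the 6 detected miR-29 members on each array, as a difference from the member's mean over the 8 arrays, before (left) and after (right) quantile normalization. Arrays are along the horizontal axis, and each symbol is a member. Before scaling all members are highest on replicate 1 of UVD 4 d, and after it the 3p members and rno-miR-29c-5p lie within 0.20 of 0 on the log2 scale.

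To compare groups, the arrays were quantile normalized, which gives every array the same set of values and a miRNA the value of its rank. Arrays on which a miRNA had the same rank therefore gave it exactly the same normalized intensity, and the 3p members took only 4 different values over the 8 arrays. Each group difference was tested with limma across 422 miRNAs, those that some group showed on both of its arrays, with Benjamini-Hochberg adjustment over all of them and a threshold of 0.05.

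Among the 3p strands, normalized rno-miR-29a-3p was 26106 on both UVD 4 h arrays, against 27832 and 26530 on the SO 4 h arrays. It was 26530 and 26106 on the UVD 4 d arrays, against 26106 and 23574 on the SO 4 d arrays. The UVD arrays were thus below the SO arrays at 4 h, though above them when arrays were scaled to the 75th percentile of miRNAs detected on all of them, and overlapped them at 4 d. The UVD group differed from the SO group by -0.06 ± 0.07 (log2 fold change ± SE) at 4 h and by 0.09 ± 0.07 at 4 d, with limma adjusted p = 0.688 and 0.797 (n = 2 arrays per group).

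For rno-miR-29b-3p, the normalized intensity was 33707 on both UVD 4 h arrays, and also on both SO 4 h arrays. It was 30366 and 27832 on the UVD 4 d arrays, against 33707 and 29054 on the SO 4 d arrays. The UVD 4 d arrays were both below the UVD 4 h arrays, and the groups at 4 d overlapped. At 4 d the UVD group differed from the SO group by -0.11 ± 0.09 on the log2 scale (limma adjusted p = 0.797). Within the UVD group, 4 d differed from 4 h by -0.21 ± 0.09, with a 95% interval of -0.44 to 0.01 (limma adjusted p = 0.317). Over both operations the difference between 4 d and 4 h was -0.16 ± 0.06, with the smallest limma adjusted p of any member in any contrast (0.179).

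rno-miR-29c-3p had a normalized intensity of 12682 on both UVD 4 h arrays, against 13668 on both SO 4 h arrays. It had 11967 and 11569 on the UVD 4 d arrays, against 13668 and 11967 on the SO 4 d arrays. Here the UVD arrays were lower without overlap at 4 h, though higher without overlap with the 75th percentile scaling, and met the lower SO array at 4 d. The UVD group differed from the SO group by -0.11 ± 0.08 on the log2 scale at 4 h and by -0.12 ± 0.08 at 4 d, and by -0.11 ± 0.05 over both timepoints. None of these passed the test (limma adjusted p = 0.512, 0.759 and 0.383).

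Among the 5p strands, rno-miR-29c-5p had a normalized intensity of 443.6 and 464.4 on the UVD 4 h arrays, against 464.4 and 473.5 on the SO 4 h arrays. It had 424.7 and 443.6 on the UVD 4 d arrays, against 443.6 and 407.0 on the SO 4 d arrays. The groups overlapped at both timepoints, with log2 fold changes of -0.05 ± 0.07 and 0.03 ± 0.07. In the SO group the 4 d arrays were below the 4 h arrays, with a difference of -0.14 ± 0.07 on the log2 scale (limma adjusted p = 0.277). With the 75th percentile scaling these arrays overlapped, at 482.5 and 422.9 for 4 d against 451.5 and 455.6 for 4 h.

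The weak 5p strands had the widest spread between arrays. rno-miR-29a-5p had a normalized intensity of 12.8 and 14.1 on the UVD 4 h arrays, against 16.4 and 17.4 on the SO 4 h arrays, with no overlap here but with overlap after 75th percentile scaling. It had 17.1 and 13.1 on the UVD 4 d arrays, against 14.0 and 17.9 on the SO 4 d arrays, where the groups overlapped. The difference between UVD and SO at 4 h was -0.33 ± 0.18 on the log2 scale (limma adjusted p = 0.399). The scanner software gave an error of 9.59% to 12% of the signal for this member, against 7.08% to 7.65% for the 3p strands.

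rno-miR-29b-5p, the 5p strand of Mir29b2, had 8.66 and 12.4 on the UVD 4 h arrays, against 13.7 and 12.9 on the SO 4 h arrays. It had 12.9 and 8.58 on the UVD 4 d arrays, against 11.4 and 9.97 on the SO 4 d arrays. Both arrays of UVD 4 h were below those of SO 4 h, and at 4 d the UVD arrays lay on both sides of the SO arrays. Its log2 fold change between UVD and SO was -0.36 ± 0.26 at 4 h, the difference furthest from 0 of any member in a comparison of 2 groups, and it did not pass the test (limma adjusted p = 0.512).

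**Figure D2:**
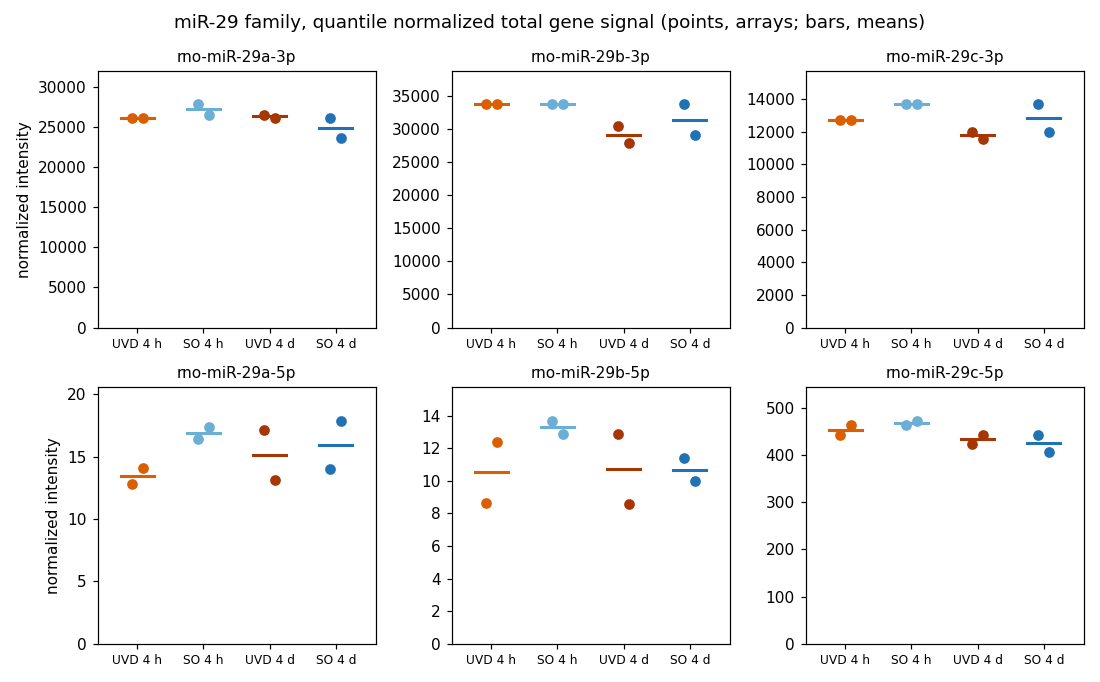
Quantile normalized total gene signal (vertical axis, arbitrary intensity units, from 0) of the 6 detected miR-29 members in each group. Each point is an array of 3 pooled rats and each bar the mean of 2 arrays. rno-miR-29b-3p is at 33707 on all 4 arrays of 4 h, and the UVD 4 d arrays of rno-miR-29c-3p are at 11967 and 11569.

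Counted over the family, 0 of 6 tested members passed in any of the 7 contrasts, and none had a limma p-value under 0.05 before adjustment. Among all 422 miRNAs, the share that passed between UVD and SO was 0.474% at 4 h, 0% at 4 d and 0% over both timepoints. Between 4 d and 4 h it was 0% in the UVD group, 1.66% in the SO group and 1.66% over both operations. For the difference between the time changes of the UVD and SO groups it was 0.237%. The members' count of 0 lay close to this background. The methods' t-test gave 1 member an unadjusted p-value under 0.05, rno-miR-29c-3p, for the change from 4 h within the UVD group, and 0 after adjustment. It could not be computed for rno-miR-29b-3p and rno-miR-29c-3p between UVD and SO at 4 h, where tied values left no spread.

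At 4 h, 4 of 6 members were lower on both UVD arrays than on both SO arrays after quantile normalization, and 28.4% of all tested miRNAs were. With the 75th percentile scaling, chosen for this count after seeing the data, 1 of 6 was lower, rno-miR-29b-5p (14.9% of all), and 2 of 6 were higher, rno-miR-29a-3p and rno-miR-29c-3p (53.1% of all), so the count at 4 h depends on the scaling. At 4 d, 0 of 6 were lower without overlap after quantile normalization, against 17.3% of all. Between 4 d and 4 h, 2 of 6 members were lower without overlap in the UVD group (25.4% of all tested miRNAs) and 3 of 6 in the SO group (28.7%). With the 75th percentile scaling, 2 of 6 were lower in the UVD group (39.3% of all), with rno-miR-29c-5p in place of rno-miR-29c-3p. In the SO group 1 of 6 was then lower, rno-miR-29b-5p (21.3% of all), so the counts over time depend on the scaling too. After quantile normalization 0 of 6 members were higher without overlap in each of these 4 comparisons. Of all tested miRNAs, 22.5% were higher between UVD and SO at 4 h, 12.1% at 4 d, 19% between 4 d and 4 h for UVD and 25.6% for SO. The median log2 fold change of the 6 members was -0.08 between UVD and SO at 4 h, beside -0.01 over all tested miRNAs, and -0.05 at 4 d, beside -0.02. Between 4 d and 4 h it was -0.03 in the UVD group, beside -0.01 over all, and -0.12 in the SO group, beside 0.00. When arrays were scaled to the 75th percentile of miRNAs detected on all of them, the median over all tested miRNAs moved to 0.12 between UVD and SO at 4 h and that of the members to 0.01, so the sign of the members' median at 4 h depends on the scaling. At 4 h the members' median was below that of all tested miRNAs with quantile normalization, cyclic loess, either 75th percentile and no scaling. With quantile normalization it lay between the quartiles of all tested miRNAs, -0.18 and 0.11. The median absolute log2 fold change was then 0.08 for the members and 0.14 for all.

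The intervals give the size of a difference that these arrays leave possible. For the 3p strands and rno-miR-29c-5p, the 16 intervals at 95% over the 4 comparisons of 2 groups lay between -0.44 and 0.26 on the log2 scale, which is between 0.737-fold and 1.2-fold. For rno-miR-29a-5p and rno-miR-29b-5p the 8 intervals were wider, between -1.01 and 0.67, or 0.497-fold to 1.59-fold. The difference between the time changes of the UVD and SO groups was estimated from -0.11 for rno-miR-29b-3p to 0.34 for rno-miR-29b-5p, with a smallest limma adjusted p of 0.598.

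**Figure D3:**
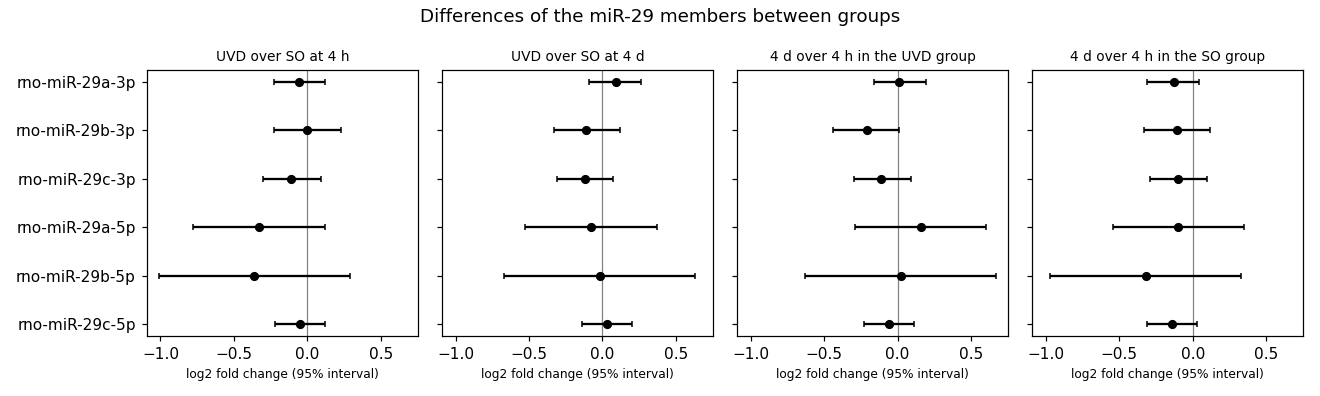
Log2 fold change (horizontal axis) of each detected miR-29 member in 4 comparisons, with its 95% interval from limma (n = 2 arrays per group). Every interval includes 0, and those of rno-miR-29a-5p and rno-miR-29b-5p are the widest.

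The strong 3p strands could also be compared within an array, where the brightness of the array cancels. A change in such a ratio shows that the signals of 2 members changed unequally, whatever the source, and its level is not read, since probes differ in efficiency. The log2 ratio of rno-miR-29b-3p to rno-miR-29a-3p was 0.294 and 0.307 on the UVD 4 h arrays, against 0.388 and 0.447 on the SO 4 h arrays. It was 0.263 and 0.131 on the UVD 4 d arrays, against 0.365 and 0.327 on the SO 4 d arrays. All 4 UVD arrays were below all 4 SO arrays, and in both operations the 4 d arrays were below the 4 h arrays. The UVD group differed from the SO group by -0.133, which is 0.912 times the SO ratio. The two-sided exact permutation p-value, with operations exchanged within each timepoint, was 0.0556, the smallest that the 36 arrangements allow, so the design could not reach 0.05 (adjusted p = 0.0667 over 6 ratio tests). Between 4 d and 4 h the difference was -0.087, also with an exact permutation p of 0.0556. Over both operations the 4 d arrays (0.131 to 0.365) overlapped the 4 h arrays (0.294 to 0.447). The share of other ratios that were lower at 4 d within both operations was not computed. The time differences of the ratios therefore cannot be judged against a background.

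The ratio of rno-miR-29c-3p to rno-miR-29a-3p moved the same way by a smaller step. Its log2 value was -1.042 and -1.054 on the UVD 4 h arrays, against -0.993 and -0.963 on the SO 4 h arrays. It was -1.067 and -1.084 on the UVD 4 d arrays, against -1.040 and -1.028 on the SO 4 d arrays. The UVD arrays were again all lower, with a mean difference of -0.056, although the highest UVD array and the lowest SO array were only -1.042 and -1.040 (exact permutation p = 0.0556). The ratio of rno-miR-29b-3p to rno-miR-29c-3p, which is fixed by the other ratios, lay between 1.215 and 1.360 on the UVD arrays, against 1.356 to 1.409 on the SO arrays, with an overlap of 1 array in each. The UVD group differed from the SO group by -0.078 in this ratio (exact permutation p = 0.0556), and by 0.061, the opposite direction, with quantile normalized signals.

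**Figure D4:**
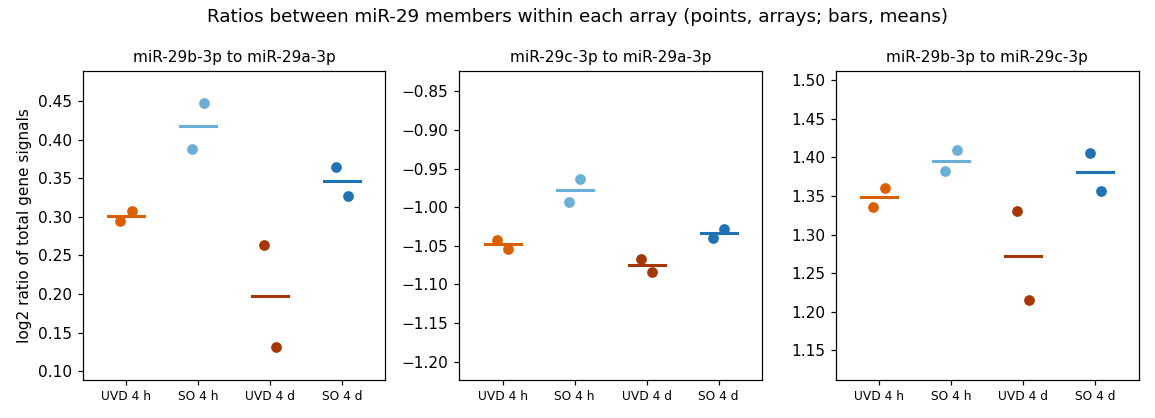
Log2 ratio of the total gene signals of 2 miR-29 members on the same array (vertical axis, not starting at 0), by group. Each point is an array and each bar the mean of 2, and all panels span the same height. In the left panel the UVD arrays reach 0.307 at most and the SO arrays 0.327 at least.

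The direction of the ratio of rno-miR-29b-3p to rno-miR-29a-3p did not depend on which probes were used. In all 4 pairs of 1 probe of each miRNA it was lower in the UVD group, with differences from the SO group between -0.162 and -0.106 on the log2 scale, and in 3 of the 4 pairs the UVD and SO arrays did not overlap. For the ratio of rno-miR-29c-3p to rno-miR-29a-3p, all 4 probe pairs were lower in the UVD group, with differences between -0.073 and -0.032, and arrays overlapped in all 4. The 2 probes of the same miRNA had an SD of their log2 ratio over the 8 arrays of 0.03 for rno-miR-29a-3p and rno-miR-29b-3p and 0.02 for rno-miR-29c-3p, beside 0.09 for the ratio of rno-miR-29b-3p to rno-miR-29a-3p and 0.04 for that of rno-miR-29c-3p to rno-miR-29a-3p. The probe ratio within rno-miR-29b-3p was itself lower in the UVD group, with a mean difference of -0.04, and that within rno-miR-29a-3p with one of -0.02, so the smaller ratio differences of rno-miR-29c-3p are of the size seen between probes of 1 miRNA.

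As a background, the ratio to rno-miR-29a-3p was taken for each of the other 376 miRNAs detected on all arrays. It separated the UVD arrays from the SO arrays in 2.39% of them and was lower on all 4 UVD arrays in 1.86%, and both 3p relatives were among the latter. Their ratios share the signal of rno-miR-29a-3p and so are not separate observations. Over all 70876 pairs of miRNAs detected on all arrays, 2.19% of the ratios separated the operations. Slide row changes with operation in this design, so the ratio and the position of the arrays cannot be told apart.

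Summed levels of 4 marker lists lay apart between the arrays of the operations at both timepoints, with no test of the sums, and 0 members of these lists passed between UVD and SO at either timepoint. The sums of the astrocyte-linked and erythroid lists overlapped at both timepoints. Those of the other lists lay apart at 1 timepoint only, each with the higher sum in the UVD group. At 4 h these were the matrix-linked list (20791 to 20813 in UVD, 19827 to 19939 in SO) and the muscle list (2127 to 2145, against 1599 to 2001). At 4 d it was the neuron-enriched list (71401 to 75311 in UVD, 67360 to 70918 in SO). Of all tested miRNAs taken singly, 28.4% were lower and 22.5% higher without overlap in the UVD group at 4 h, and 17.3% and 12.1% at 4 d. No such share was taken for sums, or for lying apart at both timepoints, so the number of lists cannot be judged against a background. The sums were taken after quantile normalization only. The 6 miRNAs listed for choroid plexus and ependyma, 5 of them detected on all arrays, summed to normalized intensities of 5907 to 6040 in UVD 4 h, against 5195 to 5378 in SO 4 h, and to 7373 to 9156 in UVD 4 d, against 6105 to 6420 in SO 4 d. The 6 listed for microglia and leukocytes, all detected, summed to 3492 to 3542 in UVD 4 h, against 3192 to 3214 in SO 4 h, and to 3900 to 4207 in UVD 4 d, against 3711 to 3874 in SO 4 d. The vessel and oligodendrocyte lists had the lower sums in the UVD group. The 4 vessel miRNAs summed to 7586 to 7890 in UVD 4 h, against 7919 to 8064 in SO 4 h, and to 7566 to 7614 in UVD 4 d, against 8208 to 8420 in SO 4 d. The 4 oligodendrocyte miRNAs summed to 53697 to 54387 in UVD 4 h, against 54738 to 56896 in SO 4 h, and to 45374 to 53704 in UVD 4 d, against 55271 to 59718 in SO 4 d. Members of a list went both ways at 4 h, with 2 of 4 vessel miRNAs higher and 2 lower, and 4 of 6 of choroid plexus and ependyma higher (median log2 fold changes -0.01 and 0.05). Of the oligodendrocyte list 2 of 4 were higher and 1 lower at 4 h (median 0.02), and of the microglia and leukocyte list 5 of 6 were higher (0.13). At 4 d, 4 of 4 vessel and 3 of 4 oligodendrocyte miRNAs were lower (-0.11 and -0.13). The choroid plexus and ependyma list and the microglia and leukocyte list each had 5 of 6 higher at 4 d (0.50 and 0.12). The part of other cell types in the ratio was not tested.

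The 2 strands of a hairpin were compared within an array in the same way. The log2 ratio of rno-miR-29c-5p to rno-miR-29c-3p stayed between -0.08 and 0.06 of its mean over the 8 arrays (SD 0.05), although both strands are counted by different probes. The ratio of rno-miR-29a-5p to rno-miR-29a-3p ranged more widely, from -0.21 on replicate 2 of UVD 4 h to 0.19 on replicate 2 of SO 4 d (SD 0.13), wider than the ratio of rno-miR-29b-3p to rno-miR-29a-3p. rno-miR-29b-5p and rno-miR-29c-5p, whose hairpins are neighbors, had a log2 ratio between -0.15 and 0.16 of its mean (SD 0.13).

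After normalization, the members resembled each other less than before. The correlation of log2 normalized intensity over the 8 arrays was highest between rno-miR-29b-3p and rno-miR-29c-3p, with Pearson's r = 0.876, and lowest between rno-miR-29a-5p and rno-miR-29c-5p, with r = -0.215. Outside the family, the patterns most like rno-miR-29b-3p were those of rno-miR-434-5p (r = 0.941), rno-miR-382-5p (r = 0.940) and rno-miR-299a-5p (r = 0.920). For rno-miR-29c-3p they were rno-miR-300-5p (r = 0.961), rno-miR-382-5p (r = 0.926) and rno-miR-540-5p (r = 0.925). For rno-miR-29a-3p they were rno-miR-877 (r = 0.925), rno-miR-758-3p (r = 0.852) and rno-miR-1188-5p (r = 0.848). Without scaling these were 0.105, 0.648 and 0.350, all below the median r of 0.676 with all miRNAs compared. For rno-miR-29c-3p the unscaled r was 0.678 with rno-miR-300-5p, 0.730 with rno-miR-382-5p and 0.328 with rno-miR-540-5p, beside a median of 0.686. For rno-miR-29b-3p the unscaled r was 0.905, 0.827 and 0.850 with the miRNAs named for it, beside a median of 0.557. rno-miR-29c-5p was most like rno-miR-758-3p (r = 0.911), rno-miR-380-5p (r = 0.904) and rno-miR-664-2-5p (r = 0.893). Of the weak strands, rno-miR-29a-5p was most like rno-miR-181b-1-3p (r = 0.820), rno-miR-3068-3p (r = 0.810) and rno-miR-30d-3p (r = 0.810), and rno-miR-29b-5p was most like rno-miR-384-3p (r = 0.911), rno-miR-708-3p (r = 0.877) and rno-miR-1843a-5p (r = 0.873). For each 5p strand the unscaled r with the miRNAs named for it was above its median with all miRNAs compared. All the miRNAs named as most alike are the best of 416 miRNAs over only 8 points and are given as a description.

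Other miRNAs linked to matrix genes or to astrocytes were described for comparison. Of 9 miRNAs known for regulating matrix genes, 7 were tested and 0 passed in any contrast, and rno-miR-200b-3p and rno-miR-200c-3p were detected on no array. Their median log2 fold change was 0.08 between UVD and SO at 4 h, with 6 of 7 above 0, and -0.01 at 4 d. rno-miR-21-5p, which is known to rise in injury and fibrosis, had 0.23 ± 0.15 between UVD and SO at 4 d (limma adjusted p = 0.759). rno-miR-24-3p and rno-miR-30c-5p had -0.02 ± 0.06 and 0.12 ± 0.05 at 4 h. Of 7 miRNAs linked to astrocytes, which also include rno-miR-24-3p, 0 passed in any contrast, with median log2 fold changes of -0.02 at 4 h and 0.00 at 4 d between UVD and SO. Their strongest signals, rno-miR-26a-5p, rno-miR-23b-3p and rno-miR-27b-3p, differed by 0.00, -0.02 and 0.13 at 4 h.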

How the data were processed

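RNA of 8 pools was hybridized to 1-colour Agilent rat miRNA arrays. The authors deposited the scanner's intensity values, read with Agilent Feature Extraction 10.7.3.1 per the file headers, and their own quantile normalized linear intensity. Here the total gene signal per miRNA was used, with control spots left out. It was quantile normalized over the 8 arrays, floored at 1 and put on the log2 scale. A miRNA was tested where some group had it detected on both arrays, which held for 422 of 758. The test was limma (version 3.58.1, under R 4.3.3) with a mean for each of the 4 groups, moderated variances and Benjamini-Hochberg adjustment at a threshold of 0.05. It was first run on simulated data, with changes larger than any member's in the main test and without ties in rank. That run therefore does not cover differences of the members' size. Ratios within an array used unscaled signals and exact permutation tests. All members are named in the text, with the 3 other miRNAs of highest Pearson correlation for each tested one. Members, lists and tests were chosen with earlier results of these data known. The lists were astrocyte-linked, matrix-linked, neuron-enriched, oligodendrocyte, microglia and leukocyte, erythroid, choroid plexus and ependyma, muscle and vessel miRNAs. The number of arrays limits the precision. Other scalings, signals, filters and variance models were tried, and each array was left out in turn. Sequences are from RefSeq (GRCr8), which matched 685 of the 758 names.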

Additional observations from a re-analysis of the deposited data

How the results depend on the processing

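No member passed in any contrast under the alternatives run, with 1 exception. With normexp background correction of the median spot signal, 1 member passed between 4 d and 4 h over both operations, rno-miR-29c-3p (limma adjusted p = 0.0479), where 67 of all 422 miRNAs passed (15.9%), against 7 with quantile normalization, and the cause was not tested. Leaving out each array in turn left the count at 0 in all contrasts. The members' log2 fold changes were small, and 84 of 906 values under an alternative had the other sign, 51 of them among the 168 values under another scaling or none. The lowest and highest of these values were -0.62 and 0.64. Replicate numbers did not pair the arrays (the replicate differences of the groups correlated between -0.255 and 0.193 over 422 miRNAs), and with the replicate number as a block 0 members passed, with a smallest adjusted p of 0.2.

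The ratio of miR-29b-3p to miR-29a-3p between UVD and SO differed by -0.125 with median spot signals, -0.067 with quantile normalized signals (exact p = 0.389), and -0.166 to -0.100 without one array. That of miR-29c-3p to miR-29a-3p differed by -0.045 and -0.128 with these signals, and by -0.063 to -0.048 without one array. That of miR-29b-3p to miR-29c-3p reversed to 0.061 with quantile normalized signals, which replace each signal by the value of its rank. Between 4 d and 4 h, the ratio of miR-29c-3p to miR-29a-3p differed by -0.042 (exact permutation p = 0.0556). That of miR-29b-3p to miR-29c-3p differed by -0.045 (exact permutation p = 0.167), and by -0.074 to -0.016 without one array. All 3 ratios between 4 d and 4 h kept their sign in all alternatives. With quantile normalized signals the exact permutation p was 0.278 for both ratios to miR-29a-3p.

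With 2 arrays per group, a difference of the weak 5p strands as small as those estimated here was not detectable, and 2 arrays tied in rank show no spread after normalization.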

Other observations

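Of the lists of miRNAs marking other tissues near the MVN, the erythroid list (4 of 4 tested) had a median log2 fold change of -0.27 between UVD and SO at 4 h and 0.07 at 4 d, with 0 passing at either timepoint. The muscle list (4 of 4 tested) had 0.52 at 4 h and -0.14 at 4 d, again with 0 passing.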
